A study of Rattus norvegicus with 36 samples.

Results

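Trim A and Trim AG are a pair of 3′ isomiRs of miR-125b that differ by 1 base at the 3′ end, and the comparison described here is that of Trim AG with Trim A in hypoxia. It rests on 6 of the 36 libraries of the study, 3 labelled Hypoxia Trim AG and 3 labelled Hypoxia Trim A, chosen by these labels and not by any measured value. H9C2, a rat cardiac myoblast line derived from embryonic heart, was transfected for 24 h with 25 nmol/L of a mimic and then kept for 24 h below 0.2% O2 in serum-free, low-glucose medium, or in normoxia with fresh medium. The other mimics were a mimic control (MC), miR-125b itself, Plus A with an added A at the 3′ end, and Trim AGU. Poly-A RNA was sequenced without strand information. The sources used here do not say whether the 3 libraries of a group came from separate cultures, so the p-values measure the spread between these libraries, which may be technical. H9C2 is an immortal line that divides in culture and models muscle precursor cells rather than beating heart muscle.

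A microRNA guides the Argonaute complex to messenger RNAs that pair with its seed, the bases near its 5′ end, and the paired transcripts are degraded or translated less. An isomiR trimmed at the 3′ end keeps the seed, while the 3′ end itself sits in a pocket of Argonaute and takes part in the stability of the guide. miR-125b is known as a microRNA of muscle and blood precursors that lowers regulators of apoptosis and differentiation.

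The mimic sequences are shown because the mimics compared differ, by their names, only in the last base. Whether the groups also differed in handling was not tested. They were derived from the mature rno-miR-125b-5p of RefSeq (Mir125b2, build GRCr8, chr11:29732588-29732609, plus strand) by removing from the 3′ end the bases in each mimic's name, are written 5′ to 3′, and carry the seed (bases 2 to 8) in capitals.
miR-125b: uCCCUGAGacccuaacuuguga
Trim A: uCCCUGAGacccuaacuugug
Trim AG: uCCCUGAGacccuaacuugu
Trim AGU: uCCCUGAGacccuaacuug
Trim A has 21 bases and Trim AG has 20. The seed is the same in all 4, and the base that Trim AG lacks is the terminal G of Trim A.

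The Hypoxia Trim AG libraries were deeper, with 39940049 to 42672504 counts against 31064213 to 34505889 for Hypoxia Trim A, and after thinning to the depth of Trim A the test called 608 genes higher and 829 lower, close to the counts given next. Levels are given in CPM, the reads of a gene per 1000000 counted reads of its library after scaling by TMM factors (a correction for library composition). Libraries of a group differed by more than counting error (chi-square of 7.75 to 96.0 per gene), and in both groups replicate 1 had a higher median of collagen genes and a lower median of ribosomal protein genes than replicates 2 and 3. Of the 11 markers of H9C2, Vim (2713 to 3182 CPM), Acta2 and Myod1 (26.3 to 42.3 CPM) were present. Des was low, with 0.856 to 1.57 CPM, Actc1 reached at most 0.465 CPM and Cdh2 at most 0.251 CPM. Of the 15 markers of endothelial, immune, epithelial and neural cells that the tables list, Map2 alone passed 2 CPM (6.24 to 7.96 CPM with Trim A, 4.25 to 4.67 CPM with Trim AG), Emcn was at 0 and Ptprc reached at most 0.126 CPM. In bulk RNA, fewer cells of a type and less RNA per cell cannot be told apart.

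With Trim AG, 28 of 29 tested mitosis genes, 17 of 33 DNA replication genes and 12 of 20 genes of smooth muscle and SRF targets rose against Trim A. In the other direction 13 of 23 interferon response genes and 9 of 25 matrix glycoproteins and proteoglycans fell. A gene was called when edgeR's quasi-likelihood test gave a Benjamini-Hochberg adjusted p below 0.05 and the fold change was at least 1.5. Of 15284 genes tested, 616 (4.03%) were higher with Trim AG and 825 (5.40%) lower, 9.43% in all, and these shares are the background for these and the later counts of list members. By the adjusted p alone 15.2% passed, and in 5368 genes (35.1%) the 3 libraries of one group did not overlap those of the other. The median log2 fold change over all tested genes was 0.000859. Leaving out Trim AG replicate 3 reduced the calls to 380 higher and 408 lower, and leaving out Trim A replicate 3 to 387 and 494, whereas leaving out both replicate 1 libraries, an alternative added after seeing the data, gave 665 and 872.

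**Figure D1:**
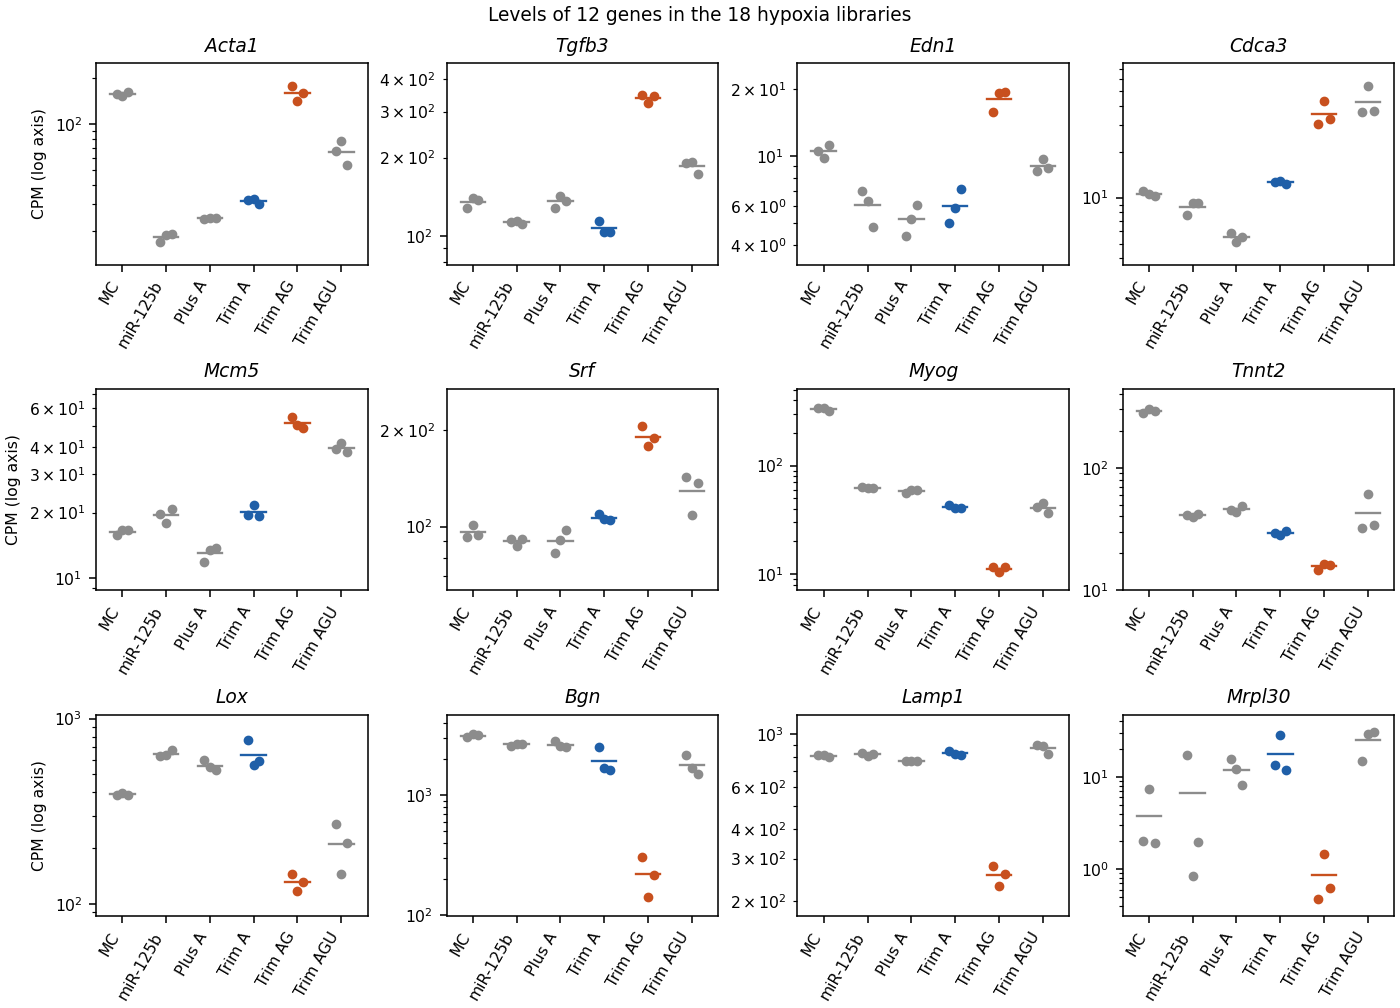
CPM (log axes) of 12 genes in the 18 hypoxia libraries, 3 for each of 6 mimics; points are libraries, short lines are group means, Trim A is blue, Trim AG is orange and the other groups are grey. The 12 genes were picked from the called genes, several of them named by a rule that required separate groups. That the 3 Trim AG libraries lie on one side of the 3 Trim A libraries in all 12 panels is therefore not a result. Over all genes tested the groups did not overlap in 35.1%. Acta1 had 141 to 177 CPM with Trim AG against 30.1 to 32.5 CPM with Trim A.

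Mitosis genes had the highest share of called members among the 39 gene lists. Of 29 tested members, 28 rose and 0 fell, against a background of 4.03% higher, and the remaining one, Ttk, had a log2 fold change of 0.50 with an adjusted p below 0.05 but under the fold threshold. The median log2 fold change of the list was 0.96. Cdca3, which promotes mitotic entry through the degradation of Wee1, had 12.7, 12.8 and 12.4 CPM with Trim A and 30.5, 42.7 and 32.9 CPM with Trim AG (log2 fold change 1.49 ± 0.14, SE, adjusted p = 0.000776). Mki67, the proliferation marker Ki-67, had 75.5, 68.00 and 60.3 CPM against 156, 159 and 143 CPM (log2 fold change 1.17 ± 0.11, adjusted p = 0.000797). In both genes every Trim AG library was above every Trim A library.

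Kinases and other proteins of the spindle moved by similar amounts. Aurkb, the kinase of the chromosomal passenger complex, had 13.7, 13.8 and 12.4 CPM with Trim A and 28.1, 30.9 and 28.2 CPM with Trim AG (log2 fold change 1.13 ± 0.10). Top2a, the topoisomerase that untangles chromosomes, had 52.4, 53.3 and 53.7 CPM against 107, 129 and 107 CPM (log2 fold change 1.11 ± 0.10). Neither overlapped between the groups. Cdc20, the activator of the anaphase-promoting complex, had a log2 fold change of 1.07 ± 0.10, and Cdca8, a further passenger protein, of 1.09 ± 0.10. Survivin (Birc5), which belongs to the same complex and inhibits apoptosis, had 26.6, 32.4 and 31.6 CPM against 50.01, 65.5 and 55.3 CPM (log2 fold change 0.92 ± 0.13), and an overlapping locus leaves its counts uncertain without strand. The other called members ranged from 0.60 for Cdc25c, the phosphatase that activates Cdk1, to 1.29 for Cep55, which acts in abscission. Over the alternatives tried, 25 to 28 members were called higher.

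The 12 largest rises were taken among genes with a mean above 5 CPM whose groups were fully separate. Among them Depdc1b, a regulator of adhesion at mitotic entry, had 2.76, 1.65 and 1.90 CPM with Trim A and 7.54, 9.52 and 7.26 CPM with Trim AG (log2 fold change 1.95 ± 0.23). Pbk, a mitotic kinase, rose by 1.45 ± 0.21 on the log2 scale, Polq, a DNA polymerase of end joining, by 1.45 ± 0.14, and Phf19, a protein associated with Polycomb, by 1.51 ± 0.15. Of the same 12, Tinagl1, a secreted matricellular protein, had 7.05, 6.63 and 7.68 CPM against 24.5, 17.9 and 20.6 CPM (log2 fold change 1.57 ± 0.14), and Nalcn, a sodium leak channel, 5.11, 5.42 and 6.67 CPM against 16.1, 16.6 and 16.4 CPM (log2 fold change 1.52 ± 0.13).

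DNA replication genes rose in part. Of 33 tested, 17 rose and 0 fell, with a median log2 fold change of 0.62 and 32 of 33 above 0. Mcm5, a subunit of the replicative helicase, had 19.5, 21.6 and 19.3 CPM with Trim A and 54.5, 50.3 and 48.6 CPM with Trim AG (log2 fold change 1.35 ± 0.09, adjusted p = 0.000353). Cdc6, which loads that helicase, had 2.73, 2.85 and 2.85 CPM against 6.81, 8.21 and 7.49 CPM (log2 fold change 1.42 ± 0.15). The groups were far apart in both. Cdt1, its partner in loading (1.04), Mcm6 (0.99), the origin recognition subunit Orc1 (1.03) and the flap endonuclease Fen1 (1.21) also rose on the log2 scale. Over the alternatives 12 to 20 members were called higher.

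The promoters of mitosis genes are shown because many of these genes carry the cell cycle homology region (CHR), an element bound by the DREAM and MuvB complexes. RefSeq promoters (GRCr8, 250 bases before to 50 bases after the gene start) were found for 25 of the 29 members, and 17 of them (68.0%) held the letters TTTGAA on either strand, against 18.1% of all 27457 promoters in the table. Of the 24 called members with a promoter, 16 held it. Windows around the match, read on the gene's strand with the match in capitals, are given for 2 members described above.
Cdc20 (chr5:137255835-137255860, minus strand): acagttgggtTTTGAAggagccaatg
Mki67 (chr1:199952677-199952702, minus strand): gccgttttcgTTTGAAttgggcgggc
Relative to the gene start the matches shown begin at positions -51 and -99, and Mki67 has a further match at -117. A match of letters is a description and not a bound site.

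**Figure D2:**
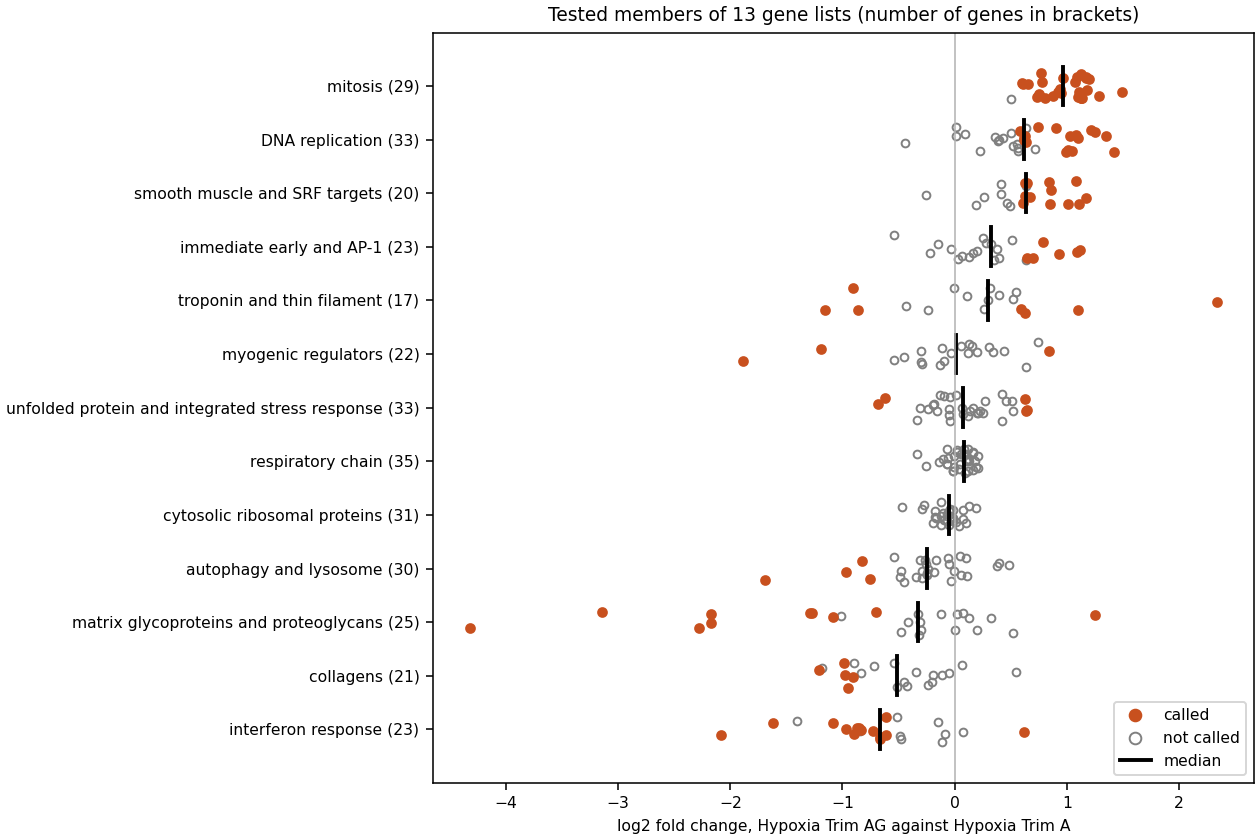
Log2 fold change of Trim AG against Trim A in hypoxia (horizontal axis) for each tested member of 13 gene lists, with called genes filled, other genes open and the list median as a black bar. The mitosis list lies to the right of 0 with 28 of 29 called, the respiratory chain and ribosomal lists lie near 0 with no call, and the interferon, collagen and matrix medians lie to the left (-0.67, -0.52 and -0.33).

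Contractile and actin genes moved in both directions. Actb, beta-actin, which is not a member of the smooth muscle and SRF list, fell (-0.74 ± 0.09 on the log2 scale). Acta1, the skeletal muscle alpha-actin, had the largest log2 rise under the naming rule, while the myogenic factor Myog and the troponins Tnnt2 and Tnnt3 fell. Acta1 (chromosome 19, 56674074 to 56677084, minus strand, in the coordinates of the deposited tables, whose build is not given in the sources used here) had 32.1, 32.5 and 30.1 CPM with Trim A and 177, 141 and 159 CPM with Trim AG (log2 fold change 2.34 ± 0.11, adjusted p = 0.000204), a rise of 5.05-fold. Its mean in the other hypoxia groups was 158 CPM with MC, 18.4 CPM with miR-125b, 24.3 CPM with Plus A and 66.03 CPM with Trim AGU. The Trim AG libraries thus lay around the MC mean, and the Trim A libraries above the means of miR-125b and Plus A and below that of Trim AGU.

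Smooth muscle genes and targets of SRF, the serum response factor that drives actin genes, were mostly higher. Of 20 tested, 12 rose and 0 fell, with a median log2 fold change of 0.64 and 19 of 20 above 0. The list was chosen with earlier results of these data known and leaves out the actin gene Actb, which fell. The counts therefore hold for the list and not for all genes that SRF drives. Srf itself had 109, 105 and 105 CPM with Trim A and 205, 178 and 188 CPM with Trim AG (log2 fold change 0.84 ± 0.09, adjusted p = 0.00123). Cnn1, the smooth muscle calponin, had 187, 227 and 219.6 CPM against 436, 499 and 491 CPM (log2 fold change 1.17 ± 0.11). Neither gene overlapped between the groups.

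Actg2, the enteric smooth muscle actin, had 1745, 2081 and 1989 CPM with Trim A and 4039.6, 4042 and 4203 CPM with Trim AG (log2 fold change 1.08 ± 0.10) and overlaps another listed locus. Lmod1, an actin nucleator of smooth muscle, rose by 1.01 ± 0.09, Cyr61, a matricellular protein, by 1.11 ± 0.11, and Mylk, the myosin light chain kinase, by 0.85 ± 0.09 on the log2 scale. Fhl2, Tpm1, Myl9, Tagln, Vcl and Fhl1 made up the rest of the 12, between 0.61 and 0.86. Over the alternatives 8 to 12 members were called higher.

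The CArG box, the element bound by SRF, was searched on both strands as CC, 6 bases of A or T, and GG, which reads the same class on either strand. It was present in 4 of the 16 list members with a RefSeq promoter (25.0%), against 1.64% of all promoters. They were Cnn2, Fhl1, Fhl2 and Srf, of which 3 rose. The Srf window is given with the more distant of its matches in capitals, because Srf itself is both the factor and a member.
Srf (chr9:21923985-21924014, plus strand): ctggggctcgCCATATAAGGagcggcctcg
The matches of Srf begin at -81 and -61 relative to the gene start.

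Sarcomere genes were split. In the thin filament list 4 of 17 rose and 3 fell, with 2 to 4 higher and 1 to 3 lower over the alternatives. The fewest higher, 2, came without Trim A replicate 1 and the fewest lower, 1, without Trim AG replicate 3. Tnnt2, the cardiac troponin T used as an injury marker, had 29.05, 28.5 and 30.4 CPM with Trim A and 14.5, 16.5 and 15.95 CPM with Trim AG (log2 fold change -0.90 ± 0.09, adjusted p = 0.00105). Tnnt3, the fast skeletal troponin T, had 34.3, 26.3 and 30.2 CPM against 20.05, 13.1 and 16.6 CPM (log2 fold change -0.87 ± 0.17), and its adjusted p was 0.0586 without Trim AG replicate 3. Tnnc2, the fast skeletal troponin C, moved the other way, with 17.9, 25.3 and 25.4 CPM against 40.7, 51.2 and 54.6 CPM (log2 fold change 1.10 ± 0.16). Tnni2, the fast skeletal troponin I, was the third member to fall, with 1.28, 1.33 and 0.949 CPM against 0.593, 0.655 and 0.349 CPM (adjusted p = 0.0496). Its call was lost with RLE factors in place of TMM, with no filter on low counts and with thinning. It was also lost without both replicate 1 libraries and in each fit that left out 1 library. The tropomyosins Tpm1 (0.62) and Tpm3 (0.59) rose on the log2 scale, and both calls were lost without Trim A replicate 1, that of Tpm1 also without Trim AG replicate 2 and that of Tpm3 without Trim AG replicate 1. In the thick filament list the M-band protein Myom2 (-1.39) and Mybph (-1.13), a myosin-binding protein, fell of 12 tested, and both calls were lost without Trim AG replicate 3, that of Myom2 also without Trim A replicate 2 or 3, with an adjusted p over the alternatives of up to 0.0657 and 0.0813.

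Myog, the factor that drives terminal differentiation of myoblasts, fell most among the myogenic regulators. It had 43.1, 40.3 and 40.9 CPM with Trim A and 11.5, 10.5 and 11.5 CPM with Trim AG (log2 fold change -1.89 ± 0.09, adjusted p = 0.000204). The spread within each group was small beside the gap between them. Chrna1, a subunit of the muscle acetylcholine receptor and a target of myogenin, had 3.85, 2.76 and 3.31 CPM against 1.33, 1.61 and 1.40 CPM (log2 fold change -1.19 ± 0.20). Of the 22 regulators tested, these 2 fell and Srf rose. Klhl41, a protein of sarcomere assembly, had 25.8, 27.6 and 26.8 CPM against 11.3, 13.2 and 12.5 CPM (log2 fold change -1.11 ± 0.10).

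Immediate early genes, which growth signals induce within minutes, rose in 6 of 23 and fell in 0, with a median log2 fold change of 0.33. Dusp1, a phosphatase that switches off MAP kinases, had 78.9, 82.3 and 87.2 CPM with Trim A and 181, 177 and 179.6 CPM with Trim AG (log2 fold change 1.12 ± 0.08, adjusted p = 0.000485). Ier3, an early response gene of survival, had 37.6, 44.8 and 44.7 CPM against 87.8, 92.1 and 90.6 CPM (log2 fold change 1.09 ± 0.10). Both were fully separate between the groups. The related phosphatases Dusp6 (0.93) and Dusp5 (0.70), the nuclear receptor Nr4a1 (0.79) and the stress factor Atf3 (0.65) also rose on the log2 scale. The calls of Nr4a1 and Atf3 were lost without Trim A replicate 3, that of Nr4a1 also without Trim AG replicate 3 (adjusted p up to 0.0659 and 0.0575).

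Among the secreted signals, rises and falls were both seen. Tgfb3, a ligand of the TGF-beta family, had 114, 104 and 103 CPM with Trim A and 346, 323 and 343 CPM with Trim AG (log2 fold change 1.66 ± 0.09, adjusted p = 0.000245). Edn1, the precursor of the vasoconstrictor endothelin-1, had 5.04, 5.86 and 7.10 CPM against 15.7, 19.1 and 19.3 CPM (log2 fold change 1.59 ± 0.16), and Il6 had 5.89, 8.27 and 7.76 CPM against 12.4, 14.98 and 12.7 CPM (log2 fold change 0.87 ± 0.16). These 3 ligands were higher in every Trim AG library. Cxcl12, a chemokine of stromal cells, went the opposite way, with 209.7, 189.5 and 201 CPM against 100.1, 85.1 and 98.4 CPM (log2 fold change -1.08 ± 0.10), as did the alarmin Il33 (-1.99 ± 0.29). In the list of TGF-beta and BMP components, which does not hold Tgfb3, 1 of 26 rose and 1 fell, against a background of 9.43% in either direction.

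Genes of the extracellular matrix were called lower more often than higher. In the list of matrix glycoproteins and proteoglycans 9 of 25 fell and 1, tenascin C (Tnc, 1.25 ± 0.33), rose, against a background of 5.40% lower. Relative to the Trim A mean, the list median of each library was 0.2911, -0.1685 and -0.0984 with Trim A on the log2 scale. With Trim AG it was -0.1651, -0.6017 and -0.3051. Replicate 1 was thus highest in both groups, and Trim AG replicate 1 lay slightly above Trim A replicate 2. The part of this difference between libraries in the result was not tested. Bgn, the proteoglycan biglycan, had 2536, 1690.4 and 1619 CPM with Trim A and 303, 143 and 216 CPM with Trim AG (log2 fold change -3.14 ± 0.30, adjusted p = 0.000826). Lox, the lysyl oxidase that cross-links collagen and elastin, had 764, 563 and 588 CPM against 146, 118 and 131 CPM (log2 fold change -2.28 ± 0.15, adjusted p = 0.000339) and overlaps other listed loci. The highest Trim AG library of each was far below the lowest Trim A library, and the rule for naming the largest falls required separate groups. The mean of Bgn was 3154 CPM with MC, 2662 CPM with miR-125b, 2635 CPM with Plus A and 1788 CPM with Trim AGU.

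Ogn, osteoglycin, a small leucine-rich proteoglycan like Bgn, had 2.95, 4.91 and 3.88 CPM with Trim A and 0.285, 0.201 and 0.0930 CPM with Trim AG (log2 fold change -4.32 ± 0.38). Lum, lumican, had 10.5, 9.83 and 10.1 CPM against 3.96, 4.20 and 4.26 CPM (log2 fold change -1.29 ± 0.13), and Fmod and Dcn, fibromodulin and decorin, which were named after their values were seen, had log2 fold changes of -2.17 ± 0.47 and -0.70 ± 0.19. Has2, a synthase of hyaluronan, had 23.7, 22.7 and 26.5 CPM against 9.89, 10.5 and 9.77 CPM (log2 fold change -1.27 ± 0.11). These 5 genes were lower in every Trim AG library than in any Trim A library. Thbs2, an adhesive glycoprotein, had a log2 fold change of -2.17 ± 0.46 and lost its call without Trim AG replicate 3 (adjusted p = 0.0671). That library also set the lowest count of the list, 5 members lower, where the other alternatives gave 7 to 9. Of 15 matrix proteases and inhibitors 2 fell and 1 rose, with 0 to 4 lower over the alternatives and 0 without Trim AG replicate 3. Mmp14, the membrane-anchored collagenase, fell by 1.35 on the log2 scale, with an adjusted p of 0.0509 without that library.

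Collagens fell in 5 of 21 and rose in 0, with a median log2 fold change of -0.52. Col3a1, a fibrillar collagen, had 11311, 6547 and 7397 CPM with Trim A and 4855, 2515 and 3556 CPM with Trim AG (log2 fold change -1.21 ± 0.27, adjusted p = 0.0229). Col1a2, a chain of type I collagen, had 1843, 2107 and 2108 CPM against 756, 873 and 1416 CPM (log2 fold change -0.99 ± 0.22). The groups did not overlap in either, and replicate 1 was the highest library of its group for Col3a1 in both groups. The median of the list in each library, relative to the Trim A mean, was 0.46, -0.30 and -0.16 with Trim A and 0.05, -0.90 and -0.51 with Trim AG on the log2 scale. The same medians for cytosolic ribosomal protein genes were -0.34, 0.21 and 0.13 with Trim A and -0.30, 0.18 and -0.02 with Trim AG, low in the replicate 1 libraries, and the part of this difference between libraries in the collagen result was not tested. Without Trim AG replicate 2, Trim AG replicate 3 or Trim A replicate 3 only 1 collagen was called, and without both replicate 1 libraries 8 were.

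**Figure D3:**
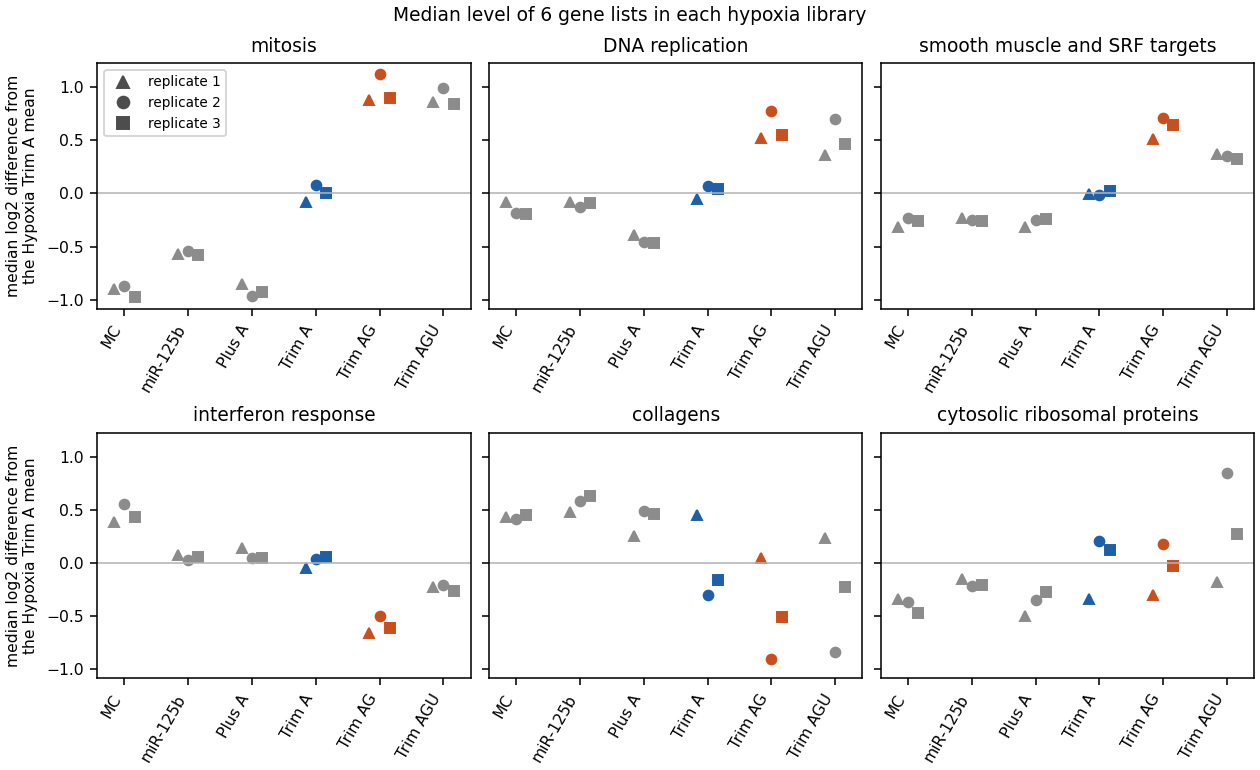
Median over list members of the log2 difference (log2 of CPM plus 0.5) from the Hypoxia Trim A mean, for each of the 18 hypoxia libraries and 6 lists; triangles are replicate 1, circles replicate 2 and squares replicate 3, with Trim A in blue, Trim AG in orange and the other mimics in grey. In the mitosis panel Trim AG lies at 0.88 to 1.12 and Trim A at -0.08 to 0.08, whereas in the collagen panel Trim AG replicate 1 (0.05) lies above Trim A replicates 2 and 3 (-0.30 and -0.16).

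The interferon response fell in 13 of 23 members and rose in 1 (Ifit2, 0.62 ± 0.12), with a median log2 fold change of -0.67. The members that fell include transcription factors of the pathway. Irf1 had 13.3, 14.8 and 14.2 CPM with Trim A and 5.86, 7.88 and 7.81 CPM with Trim AG (log2 fold change -0.97 ± 0.15, adjusted p = 0.00473). Irf9 had 21.7, 23.4 and 27.4 CPM against 15.8, 14.3 and 15.6 CPM (log2 fold change -0.66 ± 0.11). The groups did not overlap in either.

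Sensors of viral RNA fell too, with log2 fold changes of -0.89 ± 0.21 for Ddx58 (RIG-I) and -0.85 ± 0.22 for Ifih1 (MDA5). Rtp4, a gene induced by interferon, had 2.91, 3.36 and 2.87 CPM against 0.712, 1.18 and 1.07 CPM (log2 fold change -1.62 ± 0.24). Several calls sat near the threshold. The number called lower was 4 without Trim A replicate 3, 5 without Trim AG replicate 3, 7 without Trim AG replicate 1, 7 without Trim A replicate 2 and 9 without both replicate 1 libraries. Of the 14 list members with a RefSeq promoter, 8 (57.1%) held the interferon-stimulated response element, searched on both strands as TTTC, any 2 bases and TTTC, against 3.77% of all promoters. Of the 8 called members with a promoter, 4 held it. The window of Parp14, an ADP-ribosyltransferase of the interferon response that fell (-0.84 ± 0.13, adjusted p = 0.0665 with all libraries in 1 fit), is given with the match on the other strand in capitals, read on the strand of the gene.
Parp14 (chr11:78408048-78408077, plus strand): tccaggaaatGAAAGTGAAAgaagtaagtt
The match begins at -76 relative to the gene start.

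Genes of autophagy and the lysosome fell in 4 of 30 and rose in 0, with a median log2 fold change of -0.25. Lamp1, a major glycoprotein of the lysosomal membrane, had 846, 819 and 817 CPM with Trim A and 278, 230.4 and 259 CPM with Trim AG (log2 fold change -1.69 ± 0.10, adjusted p = 0.000339). Its mean in the other hypoxia groups was 809 CPM with MC, 821 CPM with miR-125b, 769 CPM with Plus A and 869 CPM with Trim AGU. Of the 6 hypoxia groups, Trim AG thus had the lowest mean (256 CPM). Ctsd, the protease cathepsin D, had 414, 369 and 381 CPM against 223, 177 and 196 CPM (log2 fold change -0.96 ± 0.11). The mitophagy kinase Pink1 (-0.75) and Wipi1 (-0.82), a protein of autophagosome formation that overlaps another listed locus, completed the members called. Outside the list, Gaa, the acid alpha-glucosidase that degrades glycogen in lysosomes, had 318, 216 and 209.8 CPM against 58.01, 32.02 and 43.9 CPM (log2 fold change -2.47 ± 0.25, adjusted p = 0.000937).

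Other large falls belonged to no list. Negr1, a neural adhesion molecule, had 12.5, 11.9 and 10.9 CPM with Trim A and 1.99, 2.16 and 1.53 CPM with Trim AG (log2 fold change -2.62 ± 0.18). Fndc5, the precursor of irisin, had 28.1, 25.9 and 28.7 CPM against 7.21, 7.33 and 7.84 CPM (log2 fold change -1.88 ± 0.10). Islr, a secreted protein of stromal cells, had 98.4, 63.7 and 69.4 CPM against 25.4, 14.1 and 18.5 CPM (log2 fold change -1.99 ± 0.24). Their groups were fully separate, which the rule for naming the largest falls required. Bbip1, a subunit of the ciliary BBSome, had a log2 fold change of -2.24 ± 0.20, and Tctex1d2, a dynein light chain, of -2.01 ± 0.18. Mrpl30, a mitochondrial ribosomal protein that overlaps Mitd1, had 13.5, 28.2 and 11.99 CPM against 0.474, 1.46 and 0.628 CPM (log2 fold change -4.39 ± 0.49), the largest fall under the naming rule. Its means were uneven elsewhere too, at 3.75 CPM with MC and 24.99 CPM with Trim AGU. Tspan4, a tetraspanin that overlaps another listed locus, had 28.8, 23.9 and 7.65 CPM against 4.08, 2.72 and 2.28 CPM (log2 fold change -2.73 ± 0.47). Without strand the counts of Negr1, Mrpl30 and Tspan4 cannot be split between the overlapping loci.

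Metabolic genes moved in few cases. The respiratory chain list had 0 calls of 35 in either direction, the cytosolic ribosomal list 0 of 31 and the microRNA machinery list 0 of 22 by edgeR's quasi-likelihood test. By the adjusted p alone, without the fold threshold, 0, 1 and 0 of these members passed. In the glycolysis list 2 of 22 fell and 0 rose. Slc16a1, the lactate transporter MCT1, had 84.4, 71.01 and 77.5 CPM with Trim A and 38.5, 38.01 and 37.7 CPM with Trim AG (log2 fold change -1.03 ± 0.09), and Pfkm, the muscle phosphofructokinase, had 61.7, 50.9 and 54.1 CPM against 25.5, 16.8 and 22.8 CPM (log2 fold change -1.35 ± 0.16). Among the other HIF targets Lox, the hydroxylases Plod1 (-1.09) and P4ha1 (-0.84) and Ndrg1 (-1.05), a stress-responsive gene, fell, 4 lower and 1 higher of 26. The calls of Plod1 and Ndrg1 were lost without Trim AG replicate 2, Trim AG replicate 3 or Trim A replicate 3, and that of Ndrg1 also without Trim A replicate 1.

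Lists of cell death, antigen presentation and NF-kB held 0 to 4 calls each, beside a background of 9.43%. Of 25 BCL2 family and apoptosome genes 2 rose and 2 fell, of 18 antigen presentation genes 1 rose and 1 fell, and of 15 NF-kB subunits and inhibitors 0 were called by the threshold on fold and 2 by the adjusted p alone. Casp8, the initiator caspase of death receptors, had 8.71, 11.1 and 10.3 CPM with Trim A and 4.27, 4.46 and 4.70 CPM with Trim AG (log2 fold change -1.16 ± 0.14). Cflar, which inhibits it, rose by 0.63 ± 0.11 on the log2 scale, a call lost without Trim AG replicate 2. Canx, the chaperone calnexin, had 1096, 1218 and 1170.5 CPM against 542, 646 and 583 CPM (log2 fold change -0.97 ± 0.10). The groups of Casp8 and Canx were fully separate.

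Among the 15 IGF genes the ligand Igf1 (-1.43 ± 0.26) and the binding proteins Igfbp2 (-1.67 ± 0.19) and Igfbp5 (-1.30 ± 0.33) fell and 0 rose. Igfbp2 had 3.48, 3.23 and 3.94 CPM with Trim A and 1.02, 1.16 and 1.16 CPM with Trim AG. Without Trim AG replicate 3 only 1 of the 3 was called, and the call of Igfbp5 was also lost without Trim AG replicate 2, Trim A replicate 1 or Trim A replicate 3. Of the 10 keratins and other intermediate filaments, 3 rose, the lamins Lmnb1 (0.79 ± 0.11) and Lmnb2 (0.72 ± 0.13) and Krt80 (1.31 ± 0.20). In the Notch list the ligand Dll1 (-2.34 ± 0.50) and the coactivator Maml1 (-0.98 ± 0.15) fell and the target Hey2 (0.75 ± 0.19) rose, of 13 tested. Maml1 had 66.9, 49.4 and 53.2 CPM against 32.9, 25.5 and 27.4 CPM, while Dll1 was low, with 1.35, 0.634 and 1.09 CPM against 0.308, 0.0755 and 0.209 CPM. The call of Dll1 was lost without Trim AG replicate 3 or Trim A replicate 3 (adjusted p up to 0.0752). That of Hey2 was lost in 9 of 14 alternatives, among them each of the 6 that left out 1 library (adjusted p up to 0.128).

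Among the 16 tested genes that the study discusses, 0 rose and 3 fell. They are mainly genes of cell death, with the reference gene Actb and the injury marker Tnnt2, which the study picked from this sequencing, so that the fall of Tnnt2 is not independent evidence. Actb, beta-actin, had 3275, 3369 and 3183 CPM with Trim A and 1978, 1990.3 and 1889.8 CPM with Trim AG (log2 fold change -0.74 ± 0.09, adjusted p = 0.00154). Bmf, a pro-apoptotic BH3-only protein, had 10.1, 7.23 and 8.11 CPM against 5.46, 3.95 and 4.91 CPM (log2 fold change -0.82 ± 0.19, adjusted p = 0.0232). Bmf was not called without Trim AG replicate 2, Trim AG replicate 3, Trim A replicate 1 or Trim A replicate 3 (adjusted p up to 0.0879).

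Bak1, a pore-forming effector of apoptosis and a known miR-125b target, had 43.7, 42.8 and 39.96 CPM with Trim A and 64.8, 56.8 and 62.7 CPM with Trim AG. Its groups did not overlap and its adjusted p was 0.00687, but its log2 fold change of 0.55 (95% interval 0.34 to 0.76) was under the fold threshold. The 95% intervals of the log2 fold change were -0.23 to 0.30 for the effector Bax, -0.06 to 0.32 for the caspase Casp2 and -0.31 to 0.35 for the adaptor Traf6. The intervals were 0.05 to 0.60 for Tp53inp1 and -0.63 to -0.20 for Tp53inp2, which act in autophagy, -0.67 to -0.09 for the BH3-only protein Bcl2l11 (Bim), -0.50 to 0.08 for the HIF hydroxylase Hif1an, -0.20 to 0.46 for the autophagy gene Dram2 and -0.68 to 1.06 for the TNF receptor Tnfrsf1b. These 9 genes were not called, which does not show that they were equal. The intervals of Tp53inp1, Tp53inp2 and Bcl2l11, which are not adjusted for the number of genes, exclude 0. By the adjusted p of edgeR's quasi-likelihood test alone, without the fold threshold, 5 of the 16 genes that the study discusses passed.

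Of 41 tested genes known as miR-125b targets, 3 rose (Edn1, Ets1 and Cdc25c) and 0 fell, with a median log2 fold change of -0.07, beside a background of 4.03% higher and 5.40% lower. Ets1, a transcription factor, had 10.8, 9.80 and 11.9 CPM with Trim A and 17.7, 15.3 and 17.05 CPM with Trim AG (log2 fold change 0.62 ± 0.12). Cdc25c had 12.4, 14.1 and 13.8 CPM against 19.8, 22.8 and 18.4 CPM (log2 fold change 0.60 ± 0.12). Both were higher in every Trim AG library. The calls of Ets1 and Cdc25c were lost in some fits that left out 1 library, with an adjusted p of up to 0.0685 and 0.0565, and without both replicate 1 libraries Edn1 was the only target called.

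The genes that the full-length mimic moved in hypoxia were then followed, since the libraries of miR-125b and MC are not shared with the contrast of Trim AG and Trim A. In that comparison 1428 of 15143 genes (9.43%) were higher and 1886 (12.5%) lower with miR-125b, and 59.5% passed the adjusted p alone. Of 1751 genes that miR-125b lowered and that were tested here, 119 (6.80%) were higher with Trim AG than with Trim A and 162 (9.25%) lower. Of 1420 that it raised, 82 (5.77%) were higher and 107 (7.54%) lower. Over all 14812 genes tested in both comparisons the shares were 4.07% higher and 5.49% lower, so both sets held a larger share of calls in each direction, and their median log2 fold changes were -0.02 and -0.06. Without Trim AG replicate 3, Trim A replicate 2 or Trim A replicate 3 the 119 became 61, 72 or 63, and the 107 became 47, 69 or 67.

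Acta1, Plekhb2, Sorbs2, Tspan2, Ier3 and Nalcn had the smallest p-values among the genes lowered by miR-125b and higher with Trim AG. The naming rule took genes only where Trim AG and miR-125b moved them in opposite directions. It took none from the 162 lowered genes that were lower with Trim AG or the 82 raised genes that were higher. Plekhb2, a protein of recycling endosomes that overlaps another listed locus, had 120.0, 116 and 118 CPM with Trim A and 271, 278 and 279 CPM with Trim AG (log2 fold change 1.23 ± 0.08). Sorbs2, an adaptor of the Z-disc and stress fibres, had 44.5, 41.2 and 40.6 CPM against 102, 105 and 100.3 CPM (log2 fold change 1.28 ± 0.09). Tspan2, a tetraspanin, had 18.6, 20.4 and 18.8 CPM against 44.1, 44.7 and 46.05 CPM (log2 fold change 1.23 ± 0.09). The MC means of these 3 were 223, 82.9 and 58.7 CPM, so the Trim AG libraries lay above the MC mean for Plekhb2 and Sorbs2 and below it for Tspan2.

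Among the genes raised by miR-125b and lower with Trim AG, Lox, Nadk2, Kpnb1, Cyp1a1 and Bbip1 led by p-value. Nadk2, the mitochondrial NAD kinase, had 21.4, 21.5 and 22.6 CPM with Trim A and 8.42, 8.94 and 8.42 CPM with Trim AG (log2 fold change -1.34 ± 0.10). Kpnb1, importin beta, had 475, 443 and 439.8 CPM against 219, 188 and 204 CPM (log2 fold change -1.15 ± 0.10). Cyp1a1, a target of the aryl hydrocarbon receptor, had 7.86, 9.64 and 8.71 CPM against 2.66, 2.62 and 2.47 CPM (log2 fold change -1.76 ± 0.15). The MC means were 14.02, 282 and 1.30 CPM, so the Trim AG libraries lay below the MC mean for Nadk2 and Kpnb1 and above it for Cyp1a1.

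The same pair of mimics was sequenced in normoxia, in 6 libraries not shared with hypoxia. There 675 of 14799 genes (4.56%) were higher with Trim AG and 677 (4.57%) lower, 9.14% in all. Among the 14522 genes tested at both oxygen levels, 601 (4.14%) were called higher in hypoxia and 636 (4.38%) in normoxia, and 269 were called in both, 44.8% of the former and 42.3% of the latter. Lower calls numbered 793 (5.46%) and 672 (4.63%), with 355 in both, 44.8% and 52.8%. Genes called in opposite directions numbered 1 and 6. Across these genes, which are not independent replicates, the log2 fold changes at the 2 oxygen levels had a Pearson r of 0.507.

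**Figure D4:**
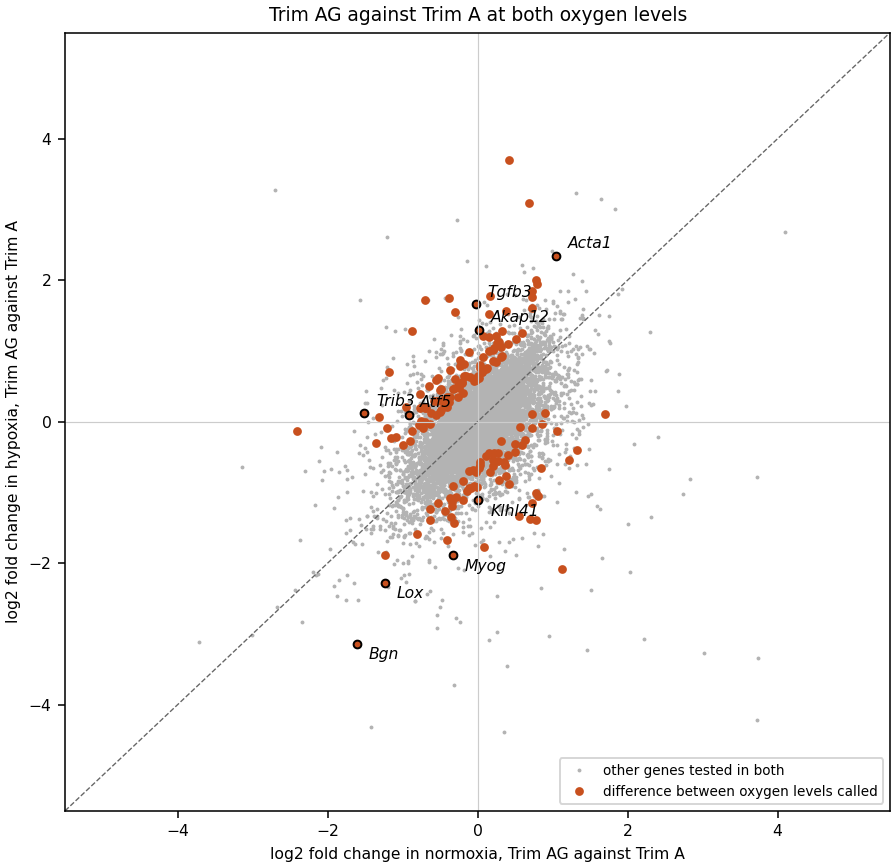
Log2 fold change of Trim AG against Trim A in hypoxia (vertical axis) and normoxia (horizontal axis) for the 14522 genes tested in both; orange points are the 175 genes whose difference between oxygen levels was called, and the dashed line marks equal values. Acta1 lies above the line with a rise at both levels (2.34 and 1.05), and Tgfb3 (-0.03) and Akap12 (0.02) lie near 0 in normoxia.

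Mitosis and replication genes rose at both oxygen levels. In normoxia 26 of 29 mitosis genes rose (median log2 fold change 0.78) and 19 of 33 replication genes (median 0.66), with 0 lower in either list. Summed over the list, mitosis genes were at 898 to 992 CPM with Trim A and 1733 to 2103 CPM with Trim AG in hypoxia, and in the other hypoxia groups at 438 to 468 (MC), 604 to 622 (miR-125b), 471 to 520 (Plus A) and 1693 to 1858 CPM (Trim AGU). A test of the difference between oxygen levels called 0 mitosis genes and 1 replication gene. Collagens fell in 9 of 21 in normoxia (median -0.59), interferon genes in 7 of 22 (median -0.54) and matrix glycoproteins in 7 of 25.

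The difference between oxygen levels, tested as the interaction of oxygen with mimic, was called for 175 of 15605 genes (1.12%), 107 (0.686%) with a higher and 68 (0.436%) with a lower log2 fold change in hypoxia. SRF targets were among the former in 7 of 20, and in normoxia 1 of the list rose and 1 fell. Cnn1 had a log2 fold change of 0.51 in normoxia and an interaction of 0.64 (adjusted p = 0.0154), Actg2 of 0.29 and 0.78 (adjusted p = 0.00238), and Lmod1 of 0.21 and 0.79 (adjusted p = 0.0016). Lmod1 was at 234 CPM with Trim A and 271 CPM with Trim AG in normoxia on average, beside 130.2 CPM and 262 CPM in hypoxia.

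Tgfb3 and Akap12 rose in hypoxia and were not called in normoxia. Tgfb3 had means of 533 CPM with Trim A and 525 CPM with Trim AG in normoxia (log2 fold change -0.03), and the interaction was 1.67 (adjusted p = 9.06e-05). Akap12, a scaffold of protein kinase A, had 89.8, 84.9 and 84.2 CPM with Trim A and 200.1, 215 and 219.9 CPM with Trim AG in hypoxia and means of 682 and 694 CPM in normoxia, and the interaction was 1.26 (adjusted p = 9.06e-05). With either mimic both genes had higher means in normoxia than in hypoxia. Myog and Klhl41 were the counterpart among the falls, with log2 fold changes of -0.32 and 0.01 in normoxia and interactions of -1.58 (adjusted p = 0.00102) and -1.14 (adjusted p = 9.49e-05). Ndrg1 was called in opposite directions, with 0.81 in normoxia and -1.05 in hypoxia on the log2 scale, at under 3 CPM in hypoxia.

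The list of the unfolded protein response and the integrated stress response, which ATF4 drives when translation is curbed, had calls in both directions in hypoxia and only falls in normoxia. In normoxia 12 of 33 fell and 0 rose, in hypoxia 2 fell and 3 rose, and the interaction was called for 6, all with a higher log2 fold change in hypoxia. Trib3, a pseudokinase induced by ATF4, had 481, 523 and 522 CPM with Trim A and 571, 535 and 546 CPM with Trim AG in hypoxia (log2 fold change 0.12 ± 0.09) and means of 122 and 42.9 CPM in normoxia (log2 fold change -1.51, interaction 1.61). Atf5, a transcription factor of the same response, had 944, 995 and 960.4 CPM against 1037, 998 and 1051 CPM in hypoxia (log2 fold change 0.09 ± 0.08), and -0.92 in normoxia (interaction 1.00). Neither gene was called in hypoxia. Ddit3, the stress factor CHOP, had log2 fold changes of -0.09 in hypoxia and -1.20 in normoxia (interaction 1.10), and Asns, the asparagine synthetase, 0.51 and -0.64 (interaction 1.14). Without 1 library the 175 interaction calls ranged from 85 to 235, with the fewest without Hypoxia Trim AG replicate 3 (92), Hypoxia Trim A replicate 3 (111), Normoxia Trim AG replicate 2 (101) or 3 (93), or Normoxia Trim A replicate 1 (85) or 3 (105).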

How the data were processed

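Members, gene lists and the naming rule were chosen with earlier results of these data known. Per the labels, H9C2 RNA was sequenced as non-stranded poly-A libraries. The deposited tables hold raw read counts per gene made by the authors, and the submitters' processing notes name HISAT2 and StringTie, while versions, build and annotation are not given in the sources used here. Fold change and p-value columns of the authors' own comparisons were not used. Counts of each library were joined on the gene identifier, a gene absent from a table counting as 0. Of the 36 libraries, 33 had counts here.

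Groups came from the labels. Hypoxia Trim AG (3 libraries) was compared with Hypoxia Trim A (3), the same pair in normoxia, and their interaction with oxygen, by edgeR 4.0.16 (R 4.3.3): TMM factors, filterByExpr, the quasi-likelihood test and Benjamini-Hochberg adjustment, calling an adjusted p below 0.05 with a fold change of at least 1.5. The SE is the log2 fold change divided by the square root of the test statistic F. Named were the 12 largest rises and 12 largest falls with a mean of 5 CPM or more and separate groups, the genes the study discusses, up to 6 called members per list by p-value, and up to 6 genes each for the interaction and the miR-125b sets. For the largest rises and falls, the separation of the groups was thus fixed by the rule and is not a result. Further members, such as Ttk, Ddx58, Ifih1, Tnc, Fmod, Dcn, Ifit2, Cep55, Ddit3, Asns and the remaining SRF targets, were named after their values were seen. Tests were tried on simulated counts: with 200 changed genes and 10 simulations, the hypoxia contrast over 15284 genes recovered 67.8% of 2-fold and 82.8% of 3-fold changes, and 7.87% of its calls were false. The interaction over 15605 genes recovered 55.0% and 72.4%, with 4.25% false. The simulations drew each gene independently and changed fewer genes than were called in hypoxia. They held no difference between replicates shared by many genes, such as that of collagen and ribosomal protein genes, so the shares may not hold for the real libraries. Alternatives were DESeq2 1.42.0, RLE factors, all libraries in 1 fit, a replicate block, removal of a gene length trend, no filter, thinning, other fold thresholds and leaving out libraries. Python 3.11.15, pandas 2.3.3, numpy 2.4.6 and matplotlib 3.10.9 made the summaries. CPM were computed from TMM-scaled library sizes over all libraries. Total counts of the Trim A and Trim AG libraries were 31064213 to 42672504 in hypoxia, and 28361142 to 30547343 in normoxia. Some genes and a promoter window are not reported here.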

Additional observations from a re-analysis of the deposited data

Results flagged for a closer look

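The effect of Trim AG against Trim A differed between hypoxia and normoxia, by the interaction term of edgeR's quasi-likelihood test with Benjamini-Hochberg adjustment, in 175 of 15605 genes. The 6 of these with the smallest p-values above a mean of 5 CPM had interactions, as the log2 fold change in hypoxia minus that in normoxia, of 1.67 for Tgfb3, 1.61 for Trib3, 1.26 for Akap12, -1.14 for Klhl41, 1.00 for Atf5 and 1.28 for Acta1. Hypoxia and normoxia also differed in medium, serum and glucose, and the part of each cannot be told apart. The groups have 3 libraries each, so no library was tested for lying far from its group.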

How the results depend on the processing

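Numbers of calls over all genes with DESeq2, RLE size factors, all libraries in 1 fit, no filter, removal of a gene length trend or thinning stayed within 1.5 times, except that DESeq2 called 353 interaction genes. Of 53 counts of list members higher or lower, 12 moved by more than 1.5 times under at least 1 of these 6 alternatives, each a count of 1 or 2 as reported, such as the thick filament members lower (4 with all libraries in 1 fit). With a fold change of at least 2, the hypoxia contrast had 210 genes higher and 354 lower, normoxia 192 and 183, the interaction 56, and the miR-125b sets 28 (lowered, higher with Trim AG) and 35 (raised, lower with Trim AG). With no threshold on the fold change these numbers were 1118 and 1207, 2463 and 2652, 251, 404 and 391. Leaving out 1 library gave 380 to 607 genes higher and 408 to 810 lower in hypoxia, 571 to 664 and 580 to 734 in normoxia, 85 to 235 for the interaction, and 61 to 125 and 47 to 103 for the sets, and the fewest hypoxia calls came without Trim AG replicate 3. The cause was not tested. With a replicate block hypoxia had 790 higher and 1135 lower, and the raised set 163. Replicate numbers paired the hypoxia libraries in part (correlation of same-numbered deviations 0.329, 0.221 and -0.0211). Trim A replicate 1 correlated with Trim AG replicate 2 at -0.313, and Trim A replicate 2 with Trim AG replicate 1 at -0.243. Replicates 1 and 2 thus correlated best with their own number and replicate 3 did not. The negative values are in part fixed, since deviations were taken from the group mean, and add nothing to this. The main fit used no pairing. Of 132 called named genes, 88 were called in all 14 alternatives that kept the fold threshold, and no direction reversed. Changes under 2-fold were not simulated, so the depth and group size needed for them were not tested.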
